A study of Mus musculus with 9 samples.

Results

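The genes for the proteins of the cytosolic ribosome were examined in ILC2, T cells and microglia sorted from aged mouse brain. They were chosen by symbol: Rpl or Rps followed by a digit, with Rplp0, Rplp1, Rplp2 and Rpsa. The S6 kinases and rows whose symbol marks a pseudogene or a binding protein were left out. Of 24394 gene rows, 87 had such a symbol. The 83 with at least 10 counts on average over the libraries were kept, 50 of the large and 33 of the small subunit by symbol. Among them were Rps4l and Rpl37rt, whose symbols carry no such mark but which GENCODE M21 lists as transcribed processed pseudogenes. The rule left out Rpl26 and Rps27rt with 0 counts, Rpl10l with 0.625 and Rpl3l with 5.5 counts on average. The members just inside it were Rpl30 with 21 and Rpl34 with 23.625 counts on average.

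A cytosolic ribosome joins a small subunit, which reads the mRNA, to a large subunit, which forms the peptide bonds. Each subunit holds its proteins in fixed proportion, nearly all present once, on a scaffold of ribosomal RNA. Most mRNAs for these proteins begin with a 5′ terminal oligopyrimidine (TOP) tract, a run of C and T letters through which the mTOR pathway and LARP1 control their translation and stability. Resting lymphocytes keep many of these mRNAs poorly translated and load them onto polysomes when activated. An mRNA level is therefore not a level of ribosomes, and protein was not measured here.

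The 2 ILC2, 3 T cell and 3 microglia libraries used here came from brains of C57BL/6 mice that were 20 to 22 months old. All of these mice had received IL-33 by injection, 400 ng each day for 7 days, and no untreated brain was compared here. ILC2 are innate lymphocytes that make type 2 cytokines, T cells are lymphocytes with rearranged antigen receptors, and microglia are the resident macrophages of the brain. The labels give neither the surface markers of the sort nor whether a library came from 1 mouse or a pool, so that p-values cover only how these libraries vary, part of which may be technical. The libraries held 8376609 to 13585956 counts on genes. The labels describe 3 ILC2 samples, and 1 of them was not analysed here, since only 2 columns of the table carry that name. Levels are in CPM, the count of a gene over the scaled size of its library, and a gene was called at an adjusted p under 0.05 from the quasi-likelihood test of edgeR, adjusted over all 13000 genes tested.

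The libraries carried the markers of their names. Summed over 12 markers each, ILC2 markers reached 8220 to 8263 CPM in ILC2, 648 to 919 CPM in T cells and 62.9 to 80.2 CPM in microglia. T cell markers reached 795 to 948 CPM in ILC2, 9893 to 12842 CPM in T cells and 20.6 to 45.1 CPM in microglia, and microglial markers 1070 to 1186, 703 to 1974 and 49284 to 71127 CPM in the same order. Of 8 neutrophil markers, the summed level was 92.1 to 142 CPM in ILC2, 88.1 to 418 CPM in T cells and 12791 to 89922 CPM in microglia, and all 8 had counts in microglia. In microglia 1 and 3 they summed to 76527 and 89922 CPM, above the 60237 and 49284 CPM of the 12 microglial markers. In microglia 2 they summed to 12791 CPM, below the 71127 CPM of the microglial markers. Basophil markers reached 498 and 1342 CPM in ILC2 libraries 1 and 2, against 24.2 to 71.9 CPM in T cells and 54.9 to 248 CPM in microglia.

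Transcription start sites are shown first for members with and without a long pyrimidine run near the annotated start. They show what the letters look like in the genes that the results below turn on. Each line has the 15 bases before and the 15 bases from the annotated start (RefSeq, GRCm38.p6), with the longest C and T run among them in capitals. Rps18, Rps15a, Rps26, Rpl13a, Rplp2 and Rpl22l1 have a run, and Rpsa, Rps4x, Rpl7l1 and Rpl10 show only short ones. In Rps15a the run ends before the annotated start, and in Rps26 and Rpl13a it begins after it. A TOP tract begins at the first base of the mRNA, so these lines do not sort TOP mRNAs from others.
Rps18 (chr17:33955651-33955680, minus strand): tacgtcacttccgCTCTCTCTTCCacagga
Rps15a (chr7:118116133-118116162, minus strand): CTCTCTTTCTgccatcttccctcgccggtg
Rps26 (chr10:128626492-128626521, minus strand): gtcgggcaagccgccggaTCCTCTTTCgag
Rpl13a (chr7:45128731-45128760, minus strand): gaaaccctgcgacaagaCCTCCTCCTTTCC
Rplp2 (chr7:141447636-141447665, plus strand): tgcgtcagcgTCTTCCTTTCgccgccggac
Rpl22l1 (chr3:28805493-28805522, plus strand): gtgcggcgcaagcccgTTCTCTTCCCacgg
Rpsa (chr9:120127751-120127780, plus strand): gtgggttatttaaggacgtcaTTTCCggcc
Rps4x (chrX:102189377-102189406, minus strand): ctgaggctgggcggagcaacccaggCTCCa
Rpl7l1 (chr17:46782642-46782671, minus strand): gtgaggCTgcgcaagcgcagtagctgaagc
Rpl10 (chrX:74270801-74270830, plus strand): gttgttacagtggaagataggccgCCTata

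RefSeq promoters were matched by symbol for 62 of the 83 members. Within 30 bases either side of an annotated start, 34 of the 62 (54.8%) had a run of at least 8 pyrimidines, against 25.8% of the 27025 genes in the table. For a gene with several starts the longest run was taken. A run of at least 10 was present in 41.9% of the members and 12.6% of all genes. Of motifs searched in the 300 bases around the start, on either strand, CCGGAAG, the core bound by ETS factors such as GABPA, was present in 40.3% of members and 9.93% of all genes. GGGCGG, the box bound by SP1, was present in 62.9% of members and 38.2% of all genes, AAGATGGC, bound by YY1, in 9.68% and 3.19%, and TATAAA in 11.3% and 15.7%. CTCTTTC, searched on the coding strand only and itself part of a pyrimidine run, was present in 19.4% of members and 4.60% of all genes. A match is a description of letters and not a binding site, and annotated starts can lie some bases from the start a cell uses.

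Ribosomal protein genes took a larger part of the transcriptome in both lymphocyte populations than in microglia. They held 6.33% and 9.72% of the counts on genes in the 2 ILC2 libraries, 7.73%, 7.18% and 5.88% in the 3 T cell libraries, and 1.52%, 1.52% and 1.63% in the 3 microglia libraries. Every lymphocyte library lay above every microglia library, while the ILC2 and T cell libraries overlapped. The mean share was 8.03% ± 2.39 in ILC2 (SD, n = 2), 6.93% ± 0.948 in T cells and 1.56% ± 0.0630 in microglia (SD, n = 3 each). That was 5.16 times as much in ILC2 and 4.46 times as much in T cells as in microglia, and 1.16 times as much in ILC2 as in T cells. These are shares of the counts on genes of each library: more of this RNA per cell and less of other RNA cannot be told apart, nor can fewer cells of a type and less RNA per cell.

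The large and small subunit genes moved together. The summed large subunit share over the summed small subunit share was 1.21 in both ILC2 libraries, 1.19 to 1.25 in T cells and 1.14 to 1.22 in microglia, so that the populations overlapped. The proteins of the mitochondrial ribosome, which are encoded in the nucleus by other genes, were also higher in every lymphocyte library, by a smaller ratio. Their 77 genes held 0.533% and 0.811% of counts in ILC2, 0.668%, 0.583% and 0.572% in T cells, and 0.309%, 0.295% and 0.320% in microglia, a ratio of 2.18 for ILC2 over microglia and 1.97 for T cells over microglia.

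The microglia libraries differed in neutrophil transcripts while their ribosomal protein shares lay close together. Microglia 2 had the lowest summed neutrophil level, 12791 CPM, and a ribosomal protein share of 1.52%. Microglia 1 and 3, with 76527 and 89922 CPM, had shares of 1.52% and 1.63%. Leaving out 1 microglia library at a time gave mean shares of 1.52% to 1.58%. Every microglia library held neutrophil transcripts, and their part in these shares was not tested.

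**Figure D1:**
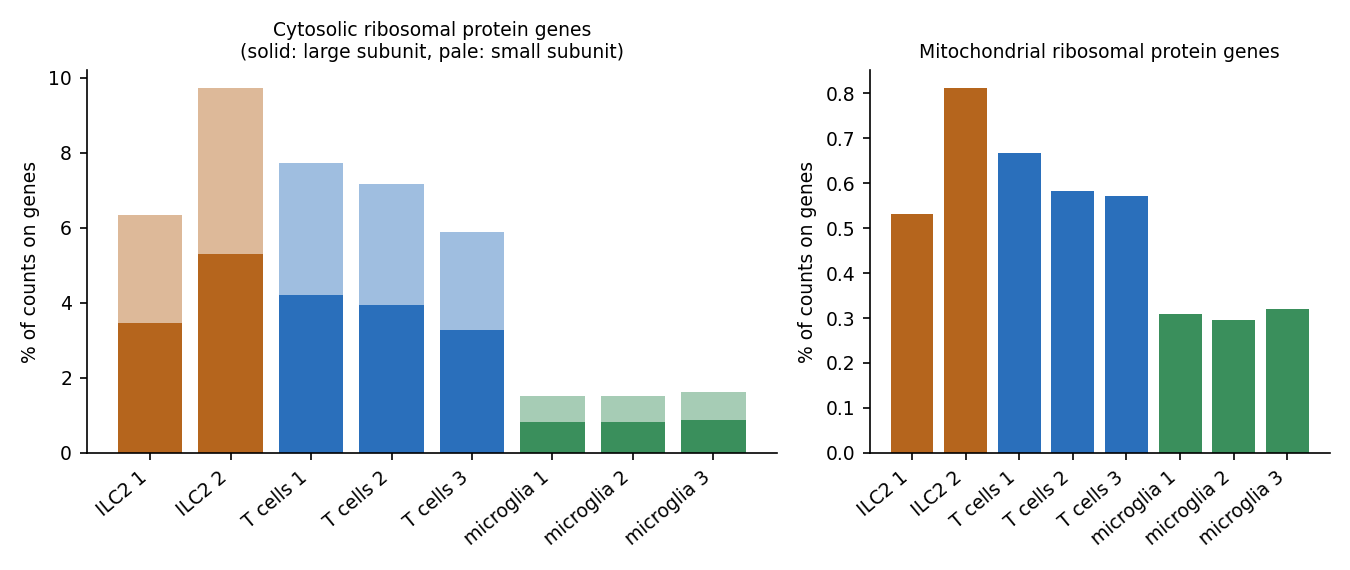
Percent of the counts on genes in each library that fell on cytosolic (left, large subunit solid, small subunit pale) and mitochondrial (right) ribosomal protein genes; bars are single libraries and both axes start at 0 with different ranges. The cytosolic share was 6.33% and 9.72% in ILC2, 5.88% to 7.73% in T cells and 1.52% to 1.63% in microglia.

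Against microglia, ILC2 had higher levels of 73 of the 83 members and no member was called lower. Of all genes tested, 4.99% were called higher and 4.77% lower. The median log2 fold change of the members was 2.02, which is 4.05-fold, with 81 of 83 above 0, and the median over all genes was -0.01. It was 2.01 for the large and 2.04 for the small subunit. In 77 members both ILC2 libraries lay above all 3 microglia libraries, as in 21.9% of all genes.

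Small subunit genes led the members that rose most. Rps18, in the head of that subunit, had 982 and 2007 CPM in ILC2 against 229, 207 and 186 CPM in microglia. Its log2 fold change was 2.85 ± 0.35 (SE), adjusted p = 0.000949 by edgeR, and without ILC2 library 2 it was 2.25, still called. Rps15a had 666 and 1290 CPM in ILC2 against 131, 142 and 149 CPM in microglia (log2 fold change 2.80 ± 0.34, edgeR adjusted p = 0.000848). For both genes the lower ILC2 library was several times as high as any microglia library. Rps19, which is needed to mature the small subunit and is the gene most often mutated in human Diamond-Blackfan anaemia, had 1427 and 2480 CPM in ILC2 against 296, 318 and 335 CPM in microglia (log2 fold change 2.63 ± 0.30). Rpl37a, Rpsa, Rpl32, Rps26 and Rps7 followed, with log2 fold changes of 2.51 to 2.61. Rpl37a without ILC2 library 2 fell to 2.00.

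T cells gave nearly the same picture. Of the 83 members, 73 were called higher than in microglia, where 5.98% of all genes were, and 1 was called lower, where 7.15% of all genes were. The median log2 fold change was 1.74, which is 3.34-fold, with 80 of 83 above 0, against 0.00 over all genes. It was 1.76 for the large and 1.74 for the small subunit. In 78 members every T cell library lay above every microglia library, as in 18.4% of all genes. The 73 members called higher were the same in both comparisons, which share the microglia libraries.

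Rps15a had the largest rise in T cells. It had 939, 971 and 663 CPM in T cells against 131, 142 and 149 CPM in microglia, a log2 fold change of 2.61 ± 0.32 (edgeR adjusted p = 0.000645). Rps18 had 1366, 1252 and 897 CPM in T cells against 229, 207 and 186 CPM in microglia (edgeR adjusted p = 0.000913). Rpsa, the protein of the small subunit first described as a laminin receptor, had 1420, 1250 and 914 CPM in T cells against 242, 200 and 206 CPM in microglia (2.47 ± 0.30). Rpl13a, which in human monocytes leaves the ribosome to silence inflammatory mRNAs, had 1284, 1484 and 1113 CPM in T cells against 231, 244 and 254 CPM in microglia (2.41 ± 0.27, edgeR adjusted p = 0.000451). Rps19, Rpl12, Rps16 and Rpl32 had log2 fold changes of 2.25 to 2.46. In none of these genes did a T cell library overlap a microglia library.

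The stalk of the large subunit, which recruits the elongation factors, is built from Rplp0 and pairs of Rplp1 and Rplp2. Rplp0 had 1385 and 2286 CPM in ILC2, 1925, 1817 and 1342 CPM in T cells, and 458, 483 and 491 CPM in microglia. Its log2 fold change was 1.94 ± 0.29 in ILC2 and 1.83 ± 0.27 in T cells, both against microglia and both called. Rplp2 had 697 and 1382 CPM in ILC2, 785 to 1018 CPM in T cells and 247 to 293 CPM in microglia, with changes of 1.93 ± 0.32 and 1.78 ± 0.30. Rplp1 had 1192 and 2487 CPM in ILC2, 1139 to 1533 CPM in T cells and 470 to 602 CPM in microglia. It was the least firm of the 3: its change of 1.81 ± 0.33 in ILC2 (edgeR adjusted p = 0.00824) came to 1.18 with adjusted p = 0.0548 without ILC2 library 2. Its change of 1.35 ± 0.31 in T cells (adjusted p = 0.0182) lost the call without T cell library 2 (adjusted p = 0.0772), microglia 1 (0.0633) or microglia 2 (0.0709).

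Rpl32, Rps14 and Rps3 were among the members with the most counts. Rps14 had 2008 and 3695 CPM in ILC2, 2309.7, 2542 and 1763 CPM in T cells, and 689, 624 and 721 CPM in microglia, with no overlap between either lymphocyte population and microglia. Per kilobase of transcript, the order changed: Rpl32 led with 3828 CPM per kilobase, followed by Rps14 with 3202 and Rps29 with 2774. Rps29, a zinc-binding protein of the small subunit singled out here after its values were seen, had the smallest called rise in both comparisons, 1.25 ± 0.32 in ILC2 (edgeR adjusted p = 0.0393) and 1.05 ± 0.30 in T cells (adjusted p = 0.0440). It had 975 and 1851 CPM in ILC2, 1461, 1312 and 937 CPM in T cells, and 605, 588 and 595 CPM in microglia.

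**Figure D2:**
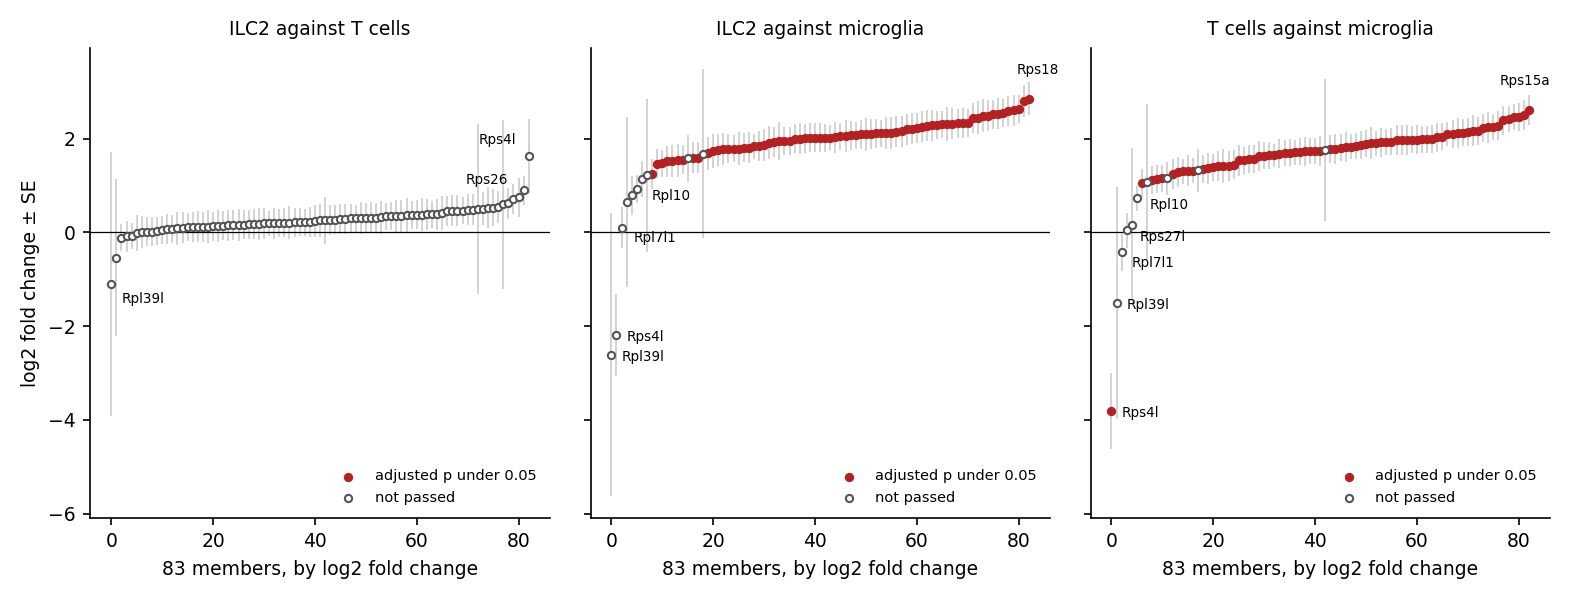
Log2 fold change ± SE of each of the 83 members, ordered from lowest to highest within each comparison; filled points passed the test at an adjusted p under 0.05. Against microglia, 73 members were called higher in ILC2 and in T cells and Rps4l was called lower in T cells; no member was called between ILC2 and T cells.

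Between ILC2 and T cells no member was called in either direction, against 0.431% of all genes called higher and 0.492% called lower. The lowest adjusted p was 0.373, for Rps26, the only member with an unadjusted p under 0.05 in edgeR, and DESeq2 and limma-voom called none either. Rps26 had 693 and 1252 CPM in ILC2 against 589, 565 and 418 CPM in T cells. The log2 fold change came to 0.89, with an approximate 95% interval of 0.27 to 1.51. That interval takes a normal multiple of the SE, which makes it too narrow for so few libraries. With Rpl15 and Rpl30, Rps26 was 1 of 3 members whose ILC2 libraries both lay above all T cell libraries, as 13.4% of all genes did. The members' median was 0.25 with 77 of 83 above 0, and 0.00 over all genes. That sign rested on 1 library: without ILC2 library 2 the median was -0.21, and without ILC2 library 1 it was 0.62. The missing calls do not show equal levels. Rpl32, for example, had a log2 fold change of 0.30 with an interval, made the same way, from -0.27 to 0.86.

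The members moved as a block between the ILC2 libraries, and between T cell library 3 and the other T cell libraries. ILC2 library 2 had more of 81 of 82 members than ILC2 library 1, with a median ratio of 1.81 and an exception in Rpl30, where 48.5% of all genes with enough counts were above 1 and their median ratio was 0.975. The mitochondrial ribosomal protein genes followed, 68 of 77 above 1 with a median ratio of 1.71. ILC2 library 2 also had the higher basophil marker level given above, whose part in this was not tested. In T cells, library 3 was above library 1 in 2 of 82 members, where 51.4% of all genes were, with a median ratio of 0.722. The median ratio of library 3 to library 2 was 0.758. Shifts were smaller between T cell libraries 2 and 1, with a median ratio of 0.944. There, 27 of 83 members were above 1, where 49.5% of all genes were. Among microglia the median ratios were 0.947 to 1.04. Leaving out ILC2 library 2 lowered the members called higher in ILC2 than in microglia to 55, and leaving out T cell library 2 lowered those in T cells to 56.

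**Figure D3:**
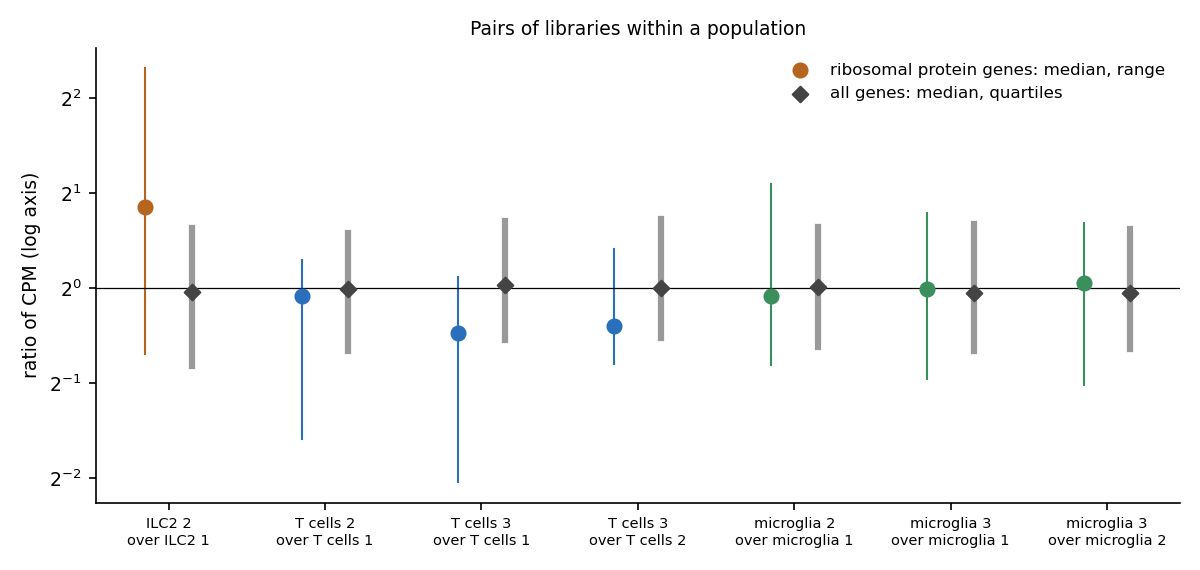
Ratio of CPM between libraries of 1 population, on a log axis, for ribosomal protein genes (circles with lines, median and full range over members with counts in both) and for all genes (diamonds with bars, median and quartiles). The median ratio of ILC2 library 2 over library 1 was 1.81 for the members and 0.975 for all genes; the median ratios within microglia lay between 0.947 and 1.04.

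The other 10 members were called higher in neither population, and 1 of them, Rps4l, was called lower in T cells than in microglia. They were Rps4l, Rps27l, Rpl7l1, Rpl36al, Rpl39l, Rpl37rt, Rpl10, Rpl30, Rpl34 and Rps27. Several are named as copies of another member. Rpl30, Rpl34, Rps27 and Rpl39l had 21 to 35.6 counts on average, and their log2 fold changes against microglia had SEs of 1.52 to 3.02. The gene that Rpl39l is named for, Rpl39, had 758 ± 333 CPM in ILC2 (SD, n = 2), 611 ± 103 CPM in T cells and 162 ± 11.4 CPM in microglia (SD, n = 3 each).

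Rps4l ran against the family. GENCODE M21 lists it as a transcribed processed pseudogene at chr6:148354656-148355598 (GRCm38, plus strand), a copy without introns of Rps4x, the X-linked gene of a core protein of the small subunit. Rps4l had 4.76 and 16.6 CPM in ILC2, 6.18, 2.07 and 2.19 CPM in T cells, and 46.0, 53.8 and 46.7 CPM in microglia. Every microglia library was above every lymphocyte library, a pattern that 18.7% of all genes had between T cells and microglia and 21.1% between ILC2 and microglia. In T cells the log2 fold change against microglia was -3.81 ± 0.81 (edgeR adjusted p = 0.0134), with adjusted p-values from 8.76e-06 to 0.0468 over 16 alternatives that keep the scaling to the whole library; without T cell library 1 it was -4.51. In ILC2 it was -2.19 ± 0.88 with an adjusted p of 0.161, and the newer quasi-likelihood method of edgeR (0.0274) and DESeq2 (0.0495) called it.

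Rps4x itself went with the family. It had 503 and 858 CPM in ILC2, 814, 683 and 522 CPM in T cells, and 229, 230 and 239 CPM in microglia. Its log2 fold change was 1.55 ± 0.31 in ILC2 (edgeR adjusted p = 0.0123, and 0.0913 without ILC2 library 2) and 1.53 ± 0.29 in T cells (adjusted p = 0.00724). Of the counts on the pair, Rps4l held 1.42% ± 0.683 in ILC2 (SD, n = 2), 0.491% ± 0.235 in T cells and 17.3% ± 1.42 in microglia (SD, n = 3 each). The aligned coding letters of the pair were identical at 80.1% of 789 positions, and 91.9% of the 75-base windows of Rps4l matched no other annotated gene exactly. The first 75 coding bases differ at 12 places, in capitals, which shows how a read of that length can tell the genes apart.
Rps4l: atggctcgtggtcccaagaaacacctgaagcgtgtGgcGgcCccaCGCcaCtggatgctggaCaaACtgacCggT
Rps4x: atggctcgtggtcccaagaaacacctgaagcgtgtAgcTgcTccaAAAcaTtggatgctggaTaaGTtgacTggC

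Rps27l, a p53 target in human cells and a near copy of the zinc-binding protein Rps27, had levels that overlapped between the populations. It had 137 and 333 CPM in ILC2, 160, 161 and 99.3 CPM in T cells, and 159, 133 and 116 CPM in microglia. The log2 fold change against microglia was 0.79 ± 0.42 in ILC2 and 0.04 ± 0.38 in T cells, neither of them called. Rps27 itself had 10 to 83 counts per library, so that 94.7% to 99.1% of the counts on the pair lay on Rps27l in all 8 libraries. Only 1.48% of the 75-base windows of Rps27 are free of an exact match in another annotated gene, against 88.0% for Rps27l, and whether this set the low count was not tested. The first 75 coding bases of the pair differ at 22 places, shown in capitals.
Rps27l: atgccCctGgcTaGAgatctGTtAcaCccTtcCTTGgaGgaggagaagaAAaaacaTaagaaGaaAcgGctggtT
Rps27: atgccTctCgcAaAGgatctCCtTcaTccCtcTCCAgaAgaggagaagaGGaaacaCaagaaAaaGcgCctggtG

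Rpl7l1, a paralog of Rpl7 found in human pre-ribosomes, was likewise not called. It had 110 and 189 CPM in ILC2, 121, 112 and 78.7 CPM in T cells, and 99.2, 213 and 105 CPM in microglia, where library 2 stood above the others. The change against microglia was 0.10 ± 0.44 in ILC2 and -0.42 ± 0.39 in T cells, while Rpl7 rose by 1.78 ± 0.31 and 1.64 ± 0.29. Rpl10, which sits near the catalytic centre, had 393 and 624 CPM in ILC2, 508, 454 and 366 CPM in T cells, and 287, 252 and 267 CPM in microglia. The libraries did not overlap, yet its changes of 0.92 ± 0.29 (edgeR adjusted p = 0.0839) and 0.72 ± 0.27 (adjusted p = 0.110) missed the threshold. Of 16 alternatives, 3 called it in ILC2, with edgeR adjusted p = 0.0116 for total counts and 0.0447 without ILC2 library 1, and 0.0404 by limma-voom, and 1 called it in T cells (total counts, adjusted p = 0.0125). Rpl36al, with 120 ± 43.5 CPM in ILC2 (SD, n = 2), 121 ± 13.9 CPM in T cells and 54.5 ± 13.2 CPM in microglia (SD, n = 3 each), had changes of 1.13 and 1.15 with edgeR adjusted p-values of 0.0962 and 0.0574; the second passed in 7 of 16 alternatives.

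Rpl22l1 rose beside its partner. Rpl22 and Rpl22l1 take the same place in the large subunit, and in mice Rpl22 restrains Rpl22l1. Rpl22l1 had 187 and 306 CPM in ILC2, 226, 170 and 159 CPM in T cells, and 36.4, 49.7 and 62.9 CPM in microglia. It rose by 2.31 ± 0.37 in ILC2 and 1.90 ± 0.34 in T cells against microglia, and Rpl22 by 2.21 ± 0.33 and 1.72 ± 0.30, all 4 called. Its part of the pair's counts was 31.9% ± 1.34 in ILC2 (SD, n = 2), 32.6% ± 2.16 in T cells and 30.04% ± 5.99 in microglia (SD, n = 3 each). The stretch of 75 coding bases from base 40 of Rpl22 shows how far apart the pair is, with 21 differing bases in capitals.
Rpl22l1: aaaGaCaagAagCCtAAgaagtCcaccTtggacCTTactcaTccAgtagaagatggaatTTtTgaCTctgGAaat
Rpl22: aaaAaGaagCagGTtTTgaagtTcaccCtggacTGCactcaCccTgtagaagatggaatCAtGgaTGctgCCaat

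**Figure D4:**
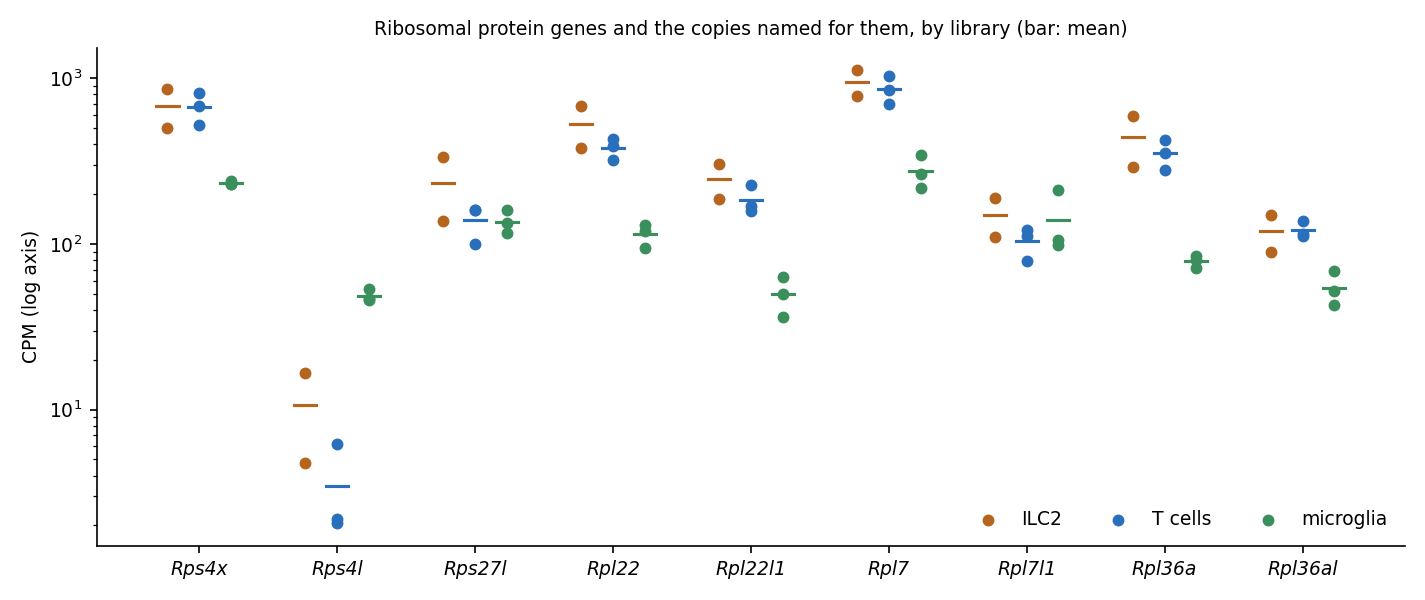
Level in CPM, on a log axis, of members and of the copies named for them, with 1 point per library and a bar at the population mean (ILC2, T cells and microglia from left to right for each gene). Rps4l was at 46.0 to 53.8 CPM in microglia and at or below 16.6 CPM in every lymphocyte library, whereas Rps27l and Rpl7l1 overlapped across populations.

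To see which members departed from the family, the libraries were scaled instead to the summed ribosomal protein counts. On that scale the ribosomal protein genes as a whole cannot differ. In ILC2 against microglia, Rps18 was then the only member called higher (log2 fold change 0.77), and Rps4l (-4.37), Rpl7l1 (-1.95), Rps27l (-1.33), Rpl10 (-1.11) and Rps29 (-0.82) were called lower. In T cells against microglia, Rps15a (0.81), Rps18 (0.70), Rpsa (0.67) and Rps19 (0.66) were called higher, and the same 5 members were called lower, at -5.64 for Rps4l, -2.23 for Rpl7l1, -1.77 for Rps27l, -1.07 for Rpl10 and -0.75 for Rps29. The other members were not called against microglia on this scale, and none was called between ILC2 and T cells.

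Many ribosomal protein genes have processed copies elsewhere in the genome, and how reads that match several places were counted is not given in the sources used here. The share of 75-base windows of a member's transcript without an exact match in another annotated gene ran from 1.48% to 100%, with a median of 51.9%. Of the 16 members with at least 80% such windows, 12 were called higher in ILC2 and 12 in T cells than in microglia, with median log2 fold changes of 2.10 and 1.82. The rest of the 16 were Rps4l, Rps27l, Rpl7l1 and Rpl39l, all named as copies of another member. Of the 25 with under 30%, 22 and 22 were called, with medians of 2.09 and 1.76. The rest of the 25 were Rpl10, Rps27 and Rpl37rt. Rpl26 had no count in any library, though 42.5% of its windows are free of such a match, and why was not tested. Counting error alone would allow up to 0.207 to 0.325 CPM, which does not cover how the row was counted. Rpl30 and Rpl34, with 59.9% and 58.6% such windows, had 21 and 23.625 counts on average. Rpl10, with 8.14%, had 2556 to 2839 counts in each microglia library. Over the 83 members, log2 mean CPM and the share of such windows had a Pearson r of 0.0914. The levels of single members are thus uncertain, and this share does not tell which.

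Members with and without a long pyrimidine run within 30 bases of an annotated start had like medians. Such a run need not lie at the first base, so this split does not separate TOP mRNAs from others. The 34 members with a run of at least 8 had a median log2 fold change of 2.02 in ILC2 and 1.77 in T cells against microglia, with 30 called higher in each. The 28 members with shorter runs had medians of 2.05 and 1.83, with 24 called higher in each. Rpsa and Rps4x, without a long run among the letters shown above, were called higher in both populations, as were Rps18 and Rps15a with theirs. Rps4x rose by less than Rpsa, Rps18 and Rps15a.

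Other genes whose mRNAs carry TOP tracts were mostly higher too. Of 25 such genes, mainly elongation factors and eIF3 subunits, 18 were called higher in ILC2 and 18 in T cells than in microglia. Of all genes tested, 4.99% and 5.98% were. The 25 genes had median log2 fold changes of 1.66 and 1.43. Leaving out 1 library gave 11 to 16 calls among them in ILC2 and 10 to 17 in T cells. Eef1g, a subunit of the complex that recharges elongation factor 1A, had 261 and 303 CPM in ILC2, 275, 275 and 215 CPM in T cells, and 41.5, 61.8 and 58.7 CPM in microglia. Vim, an intermediate filament gene with a TOP mRNA, rose by 2.28 ± 0.24 in T cells. Both genes kept their calls against microglia in all 16 alternatives that keep the scaling to the whole library. Fau, the fusion gene of a small subunit protein, named here after its values were seen, had smaller log2 fold changes of 1.18 ± 0.31 and 1.03 ± 0.29, called in both, but the first had an edgeR adjusted p of 0.290 without ILC2 library 2 and the second 0.140 without T cell library 2.

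Of 46 ribosome assembly factors, 3 were called higher in ILC2 and 7 in T cells than in microglia, where 4.99% and 5.98% of all genes were, with medians of 0.53 and 0.86. Leaving out 1 library gave 0 to 2 calls in ILC2, with 0 without ILC2 library 2, and 3 to 7 in T cells, with 3 without T cell library 2. Nop10, of the box H/ACA particles that modify ribosomal RNA, had 258 and 443 CPM in ILC2, 549, 515 and 376 CPM in T cells, and 160, 108 and 116 CPM in microglia. It rose by 1.91 ± 0.32 in T cells and by 1.45 ± 0.34 in ILC2, where the edgeR adjusted p was 0.179 without ILC2 library 2. Dkc1, the pseudouridine synthase of the same particles, rose by 1.79 ± 0.46 in T cells (edgeR adjusted p = 0.0303, and 0.0956 without microglia 2). Ncl, which encodes nucleolin, rose by 1.28 ± 0.33 in ILC2 (adjusted p = 0.0368, and 0.122 without ILC2 library 1). Of 14 genes of RNA polymerase I, which transcribes ribosomal RNA, Polr1d rose in ILC2 by 1.27 ± 0.32 (adjusted p = 0.0353, and 0.216 without ILC2 library 2), and none was called in T cells, where 3 had an unadjusted p under 0.05 in edgeR and DESeq2 called 1 lower.

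Of 26 other initiation factors, 5 were called higher in T cells, where 5.98% of all genes were, led by Eif3i (1.49 ± 0.32, edgeR adjusted p = 0.0145) and Eif3d (1.36 ± 0.29, adjusted p = 0.0132), 2 subunits of the eIF3 complex. Without microglia 2 all 5 calls were lost, with edgeR adjusted p = 0.0524 and 0.0514 for this pair. None was called in ILC2, where 6 had an unadjusted p under 0.05 in edgeR and DESeq2 called 4 higher. Of 8 factors of ribosomal protein promoters, the deacetylase gene Hdac1 rose by 1.24 ± 0.28 in T cells (adjusted p = 0.0195, and 0.0884 without T cell library 2). In ILC2 none was called, 1 had an unadjusted p under 0.05 in edgeR and DESeq2 called 1 higher. Of 18 chaperones of ribosomal proteins, Bccip rose by 1.61 ± 0.38 in T cells (adjusted p = 0.0216, and 0.0941 without T cell library 2). In ILC2 none was called, where 2 had an unadjusted p under 0.05 in edgeR and DESeq2 called 2 higher.

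Few regulators were called in either direction. Of 21 genes that act on TOP mRNAs or mTOR, 2 were called higher in ILC2, and 2 higher and 1 lower in T cells. Of all genes tested, 4.99% were called higher in ILC2, and 5.98% higher and 7.15% lower in T cells. Pdcd4, an inhibitor of the helicase eIF4A, had 201 and 184 CPM in ILC2, 306, 294 and 294 CPM in T cells, and 15.9, 11.0 and 24.0 CPM in microglia, and its log2 fold changes of 3.50 ± 0.37 in ILC2 and 4.14 ± 0.36 in T cells were called in the same 16 alternatives. Cnbp, a zinc finger protein that binds TOP mRNAs, rose by 1.11 ± 0.24 in ILC2 (edgeR adjusted p = 0.0177, and 0.0767 without ILC2 library 2). Eif4ebp1, the mTOR substrate that blocks eIF4E, fell by 1.51 ± 0.40 in T cells (adjusted p = 0.0357, and 0.108 without T cell library 3). Of 10 genes of the Myc family, none was called higher, 1 was called lower in ILC2 and 2 in T cells. Of all genes tested, 4.77% were called lower in ILC2 and 7.15% in T cells. Mxd1, a repressor that opposes Myc, fell by 2.25 ± 0.62 in ILC2 (adjusted p = 0.0489, and 0.214 without ILC2 library 2) and by 2.11 ± 0.53 in T cells (adjusted p = 0.0276, and 0.0887 without T cell library 1). Neutrophils, which express Mxd1 too, differed in marker level as given above, and their part was not tested. Mycl had no count in any lymphocyte library and 25.8, 8.59 and 10.6 CPM in microglia. With a floor of 3 counts in each T cell library, T cells lay 54.2-fold below the microglia mean, a value that leaves out the spread between microglia libraries. The call of Mycl in T cells (edgeR adjusted p = 0.0256) was lost without microglia 1 (0.0975). Myc itself, an activator of ribosome synthesis, was not called, at 0.60 ± 0.38 in ILC2 and 0.83 ± 0.35 in T cells.

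Of 16 ribosome quality control genes, none was called, with 2 in T cells at an unadjusted p under 0.05 in edgeR, none in ILC2, and 1 called lower in T cells by DESeq2. Of the 77 mitochondrial ribosomal protein genes, 3 were called higher in ILC2 and 1 in T cells than in microglia, where 4.99% and 5.98% of all genes were, with medians of 0.78 and 0.65. Leaving out 1 library gave 1 to 9 calls in ILC2 and 0 to 7 in T cells, DESeq2 called 5 higher in each, and limma-voom 4 in each. Mrpl33 rose most in ILC2, with 328 and 686 CPM in ILC2, 231, 240 and 241 CPM in T cells, and 114, 93.7 and 104 CPM in microglia. Its log2 fold change was 2.29 ± 0.34 in ILC2 (1.66 without ILC2 library 2, still called) and 1.19 ± 0.31 in T cells (edgeR adjusted p = 0.0313, and 0.0983 without microglia 2). Between ILC2 and T cells no gene of any of these lists was called by edgeR, and DESeq2 called 1, a gene that acts on TOP mRNAs or mTOR.

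**Figure D5:**
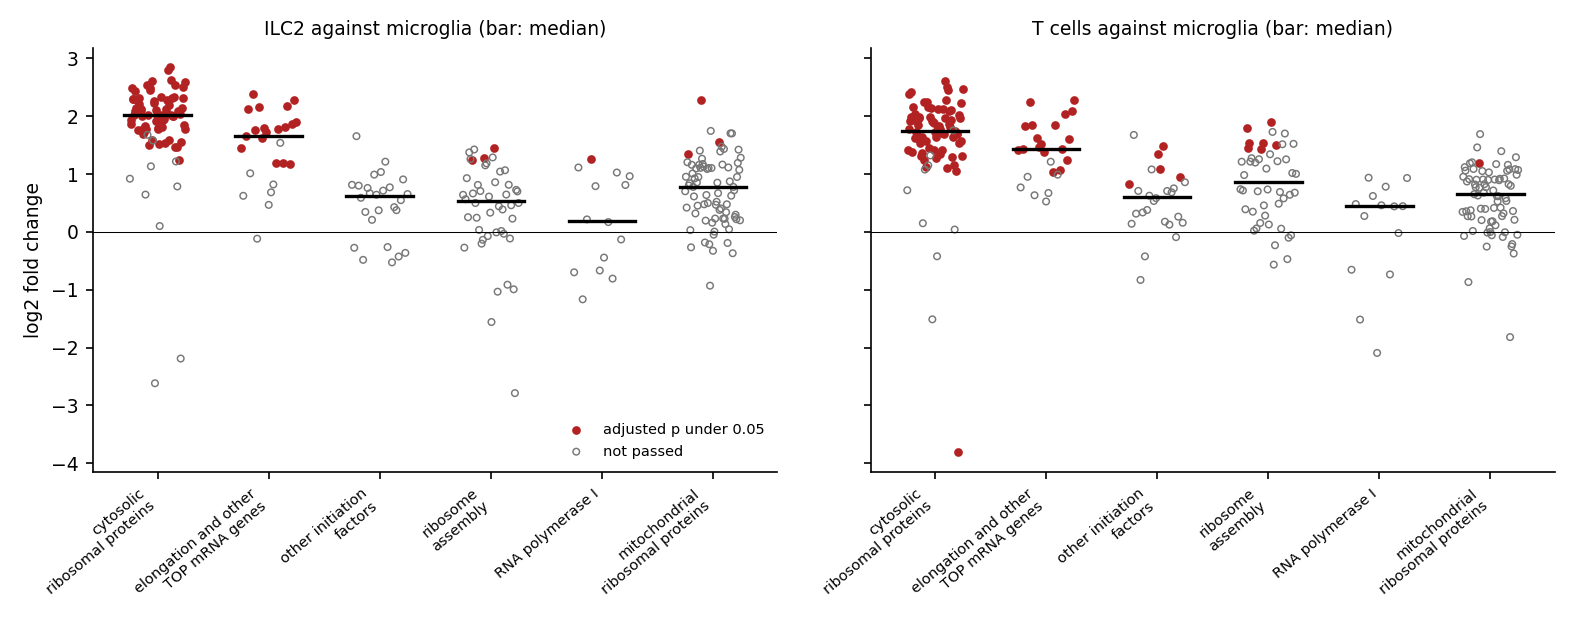
Log2 fold change of each tested gene in 6 groups of genes for ILC2 (left) and T cells (right) against microglia; filled points passed the test at an adjusted p under 0.05 and bars mark medians. Cytosolic ribosomal protein genes had medians of 2.02 and 1.74, other TOP mRNA genes 1.66 and 1.43, and mitochondrial ribosomal protein genes 0.78 and 0.65.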

How the data were processed

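Single-end RNA-seq reads were counted per gene by the authors, and the deposited values are whole-number counts without scaling, though their title calls them normalized. Per the submitters' processing notes, the tools were STAR 2.5.3a, Cufflinks 2.0, DESeq2 1.1, FastQC 1.0.0 and bcl2fastq 2.20.0.422, with mm10; the counting program and strand setting are not given in the sources used here. The rows of reads assigned to no gene (53.8% to 61.0% of the summed rows of a library), ambiguous reads (0.338% to 1.23%) and 27 symbols turned into dates were left out. Reads without a row in the table are not in these shares. The labels describe 3 ILC2 samples and no ILC1, and the table has 2 columns headed ILC2 and 1 headed ILC1. That 1 value column was not used, and ILC2 rest on 2 libraries. Sample titles share the numbers 1 to 3 across populations, but column headings carry none, so that library numbers here follow the column order and pair nothing.

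Counts were scaled by TMM (factors 0.822 to 1.18) and tested in R 4.3.3 with edgeR 4.0.16 (legacy two-sided quasi-likelihood F test, 8 libraries in 1 fit of 3 groups, mean count of at least 10, Benjamini-Hochberg over 13000 genes). The SE was taken from F as the size of the log2 fold change over its root. Other scalings, no filter, DESeq2 1.42.0, limma-voom (limma 3.58.1) and single left-out libraries were tried, and the test was checked on simulated data. Gene models were GENCODE M21, with the shortest transcript in the consensus coding set; starts were RefSeq GRCm38.p6. Named genes were the up to 8 with the largest called change per comparison, the 5 highest and 3 lowest levels, stalk proteins, Rpsa, copies with their partners, and up to 2 called genes per other list and comparison. Some genes that this rule names are not reported here. The members and lists were chosen with earlier results of these data known. Floors cover counting error only.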

Additional observations from a re-analysis of the deposited data

How the results depend on the processing

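No paired analysis was possible because no heading in the table numbers its replicate, although the sample titles share the numbers 1 to 3 across populations; whether libraries share mice is not known, and scaling to mitochondrially encoded transcripts was not run because none are used here. Scaled to the summed ribosomal protein counts, which fixes the family by construction, members called higher than in microglia numbered 1 in ILC2 and 4 in T cells, members called lower 5 and 5, and the medians were -0.0401 and -0.0556. On that scale, which moves the members together, 44 and 45 of the 83 members lay below 0 in ILC2 and T cells against microglia, where 2 and 3 did with scaling to the whole library. Genes named by rule that turned below 0 included, in ILC2 against microglia, Rplp0 -0.0937, Rplp1 -0.28, Rplp2 -0.14, Rps27l -1.33, Rpl7l1 -1.95, Rps4x -0.50, Rpl7 -0.22, Rpl3 -0.15 and Rpl10 -1.11. In T cells against microglia they included Rps26 -0.16, Rps14 -0.0916, Rps3 -0.10, Rplp1 -0.44, Rplp2 -0.0113, Rps27l -1.77, Rps4x -0.27, Rpl22 -0.0637, Rpl7 -0.16, Rpl3 -0.14 and Rpl10 -1.07. The newer quasi-likelihood method and DESeq2 each called 1 member, Rps4l, lower in ILC2 than in microglia. With total counts and no scaling factor, the T cell median was 2.10, with a median of 0.37 over all genes against microglia (0.31 for ILC2). Leaving out 1 library at a time gave 55 to 74 members called higher in ILC2 and 56 to 74 in T cells than in microglia, with medians of 1.55 to 2.43 and 1.63 to 1.95, and none in ILC2 against T cells, with medians of -0.21 to 0.62. Mean shares were 6.33% to 9.72% in ILC2, 6.53% to 7.46% in T cells and 1.52% to 1.58% in microglia. The common biological coefficient of variation of 0.967 limits single genes with few counts.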
